A study of Homo sapiens with 12 samples.

Results

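Amino acid transporters of 6 solute carrier families were followed in leukaemia cells treated with a NOTCH inhibitor. The members were the genes of SLC1, SLC3, SLC7, SLC36, SLC38 and SLC43 that a probe set of the array names alone, with the cystine carrier SLC7A11 left out. They were 37 genes on 88 probe sets, of 19775 genes with a single symbol and 54675 probe sets in all. The families held 7, 2, 12, 2, 11 and 3 members in that order. No probe set was found for SLC36A2, SLC36A3 or SLC38A8. The symbols SLC38A2-AS1, SLC38A4-AS1, SLC7A11-AS1, SLC7A14-AS1 and SLC7A6OS go on after the digits and were not counted as members.

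KOPT-K1 and HPB-ALL are established lines of human T-cell acute lymphoblastic leukaemia. Each line was treated for 24 hours with SAHM1 at 20 µM or with the equivalent amount of DMSO, its vehicle, and each of the 4 groups held 3 cultures with 1 array each. SAHM1 is a stapled peptide modelled on mastermind-like, made to occupy the NOTCH transcription complex. Neither line is given a genetic change in the labels, and all cells grew in RPMI medium with serum. Each deposited value is a ratio to that line's own DMSO average, so the level of a transporter, the order of levels among transporters and the T-cell markers of the lines could not be read. Values below are log2 ratios on single arrays and log2 differences (SAHM1 minus DMSO), each ± its limma standard error, where a group is n = 3 arrays. Calls are at an adjusted p under 0.05 over all genes. In bulk RNA, fewer cells that express a gene and less RNA per cell cannot be told apart.

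Amino acids cross membranes on carriers that differ in substrate and in what drives them. The SLC3 heavy chains are glycoproteins that bring SLC7 light chains to the cell surface, where the pair exchanges one amino acid for another. CD98, the heavy chain SLC3A2, with LAT1, the light chain SLC7A5, takes up leucine and other large neutral amino acids in return for glutamine, and ASCT2 (SLC1A5) and the SLC38 carriers of systems A and N bring glutamine in. Growing and activated T cells are known for high levels of these carriers, and some SLC38 and SLC36 members sit on lysosomes, where amino acids are sensed.

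In KOPT-K1, 12 of the 37 transporters fell with SAHM1 and 1 rose. The falls were 32.4% of the members, and 13.2% of all genes were called lower in this line. The single rise was 2.7% of the members, with 5.85% of all genes called higher. The median log2 difference was -0.12 over the members and 0.00 over all genes. The members' median was -0.076 without the DMSO 1 array of KOPT-K1, -0.053 without its SAHM1 2 array and -0.062 without its SAHM1 3 array. All SAHM1 arrays lay below all DMSO arrays for 13 members and above them for 3, where the shares of all genes were 21.6% and 13.5%. Falls of at least 1 log2 unit were called for 51 genes of the array, and 5 of them were members: SLC3A2, SLC7A5, SLC7A3, SLC43A1 and SLC1A5. In HPB-ALL, 3 members were higher and 1 was lower. Those were 8.11% and 2.7% of the members, with 4.96% and 4.38% of all genes called higher and lower, and the members' median was -0.0031 against -0.02 over all genes. The SAHM1 arrays of HPB-ALL lay wholly below the DMSO arrays for 7 members and wholly above for 7, with 15.7% and 13.4% of all genes doing so.

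**Figure D1:**
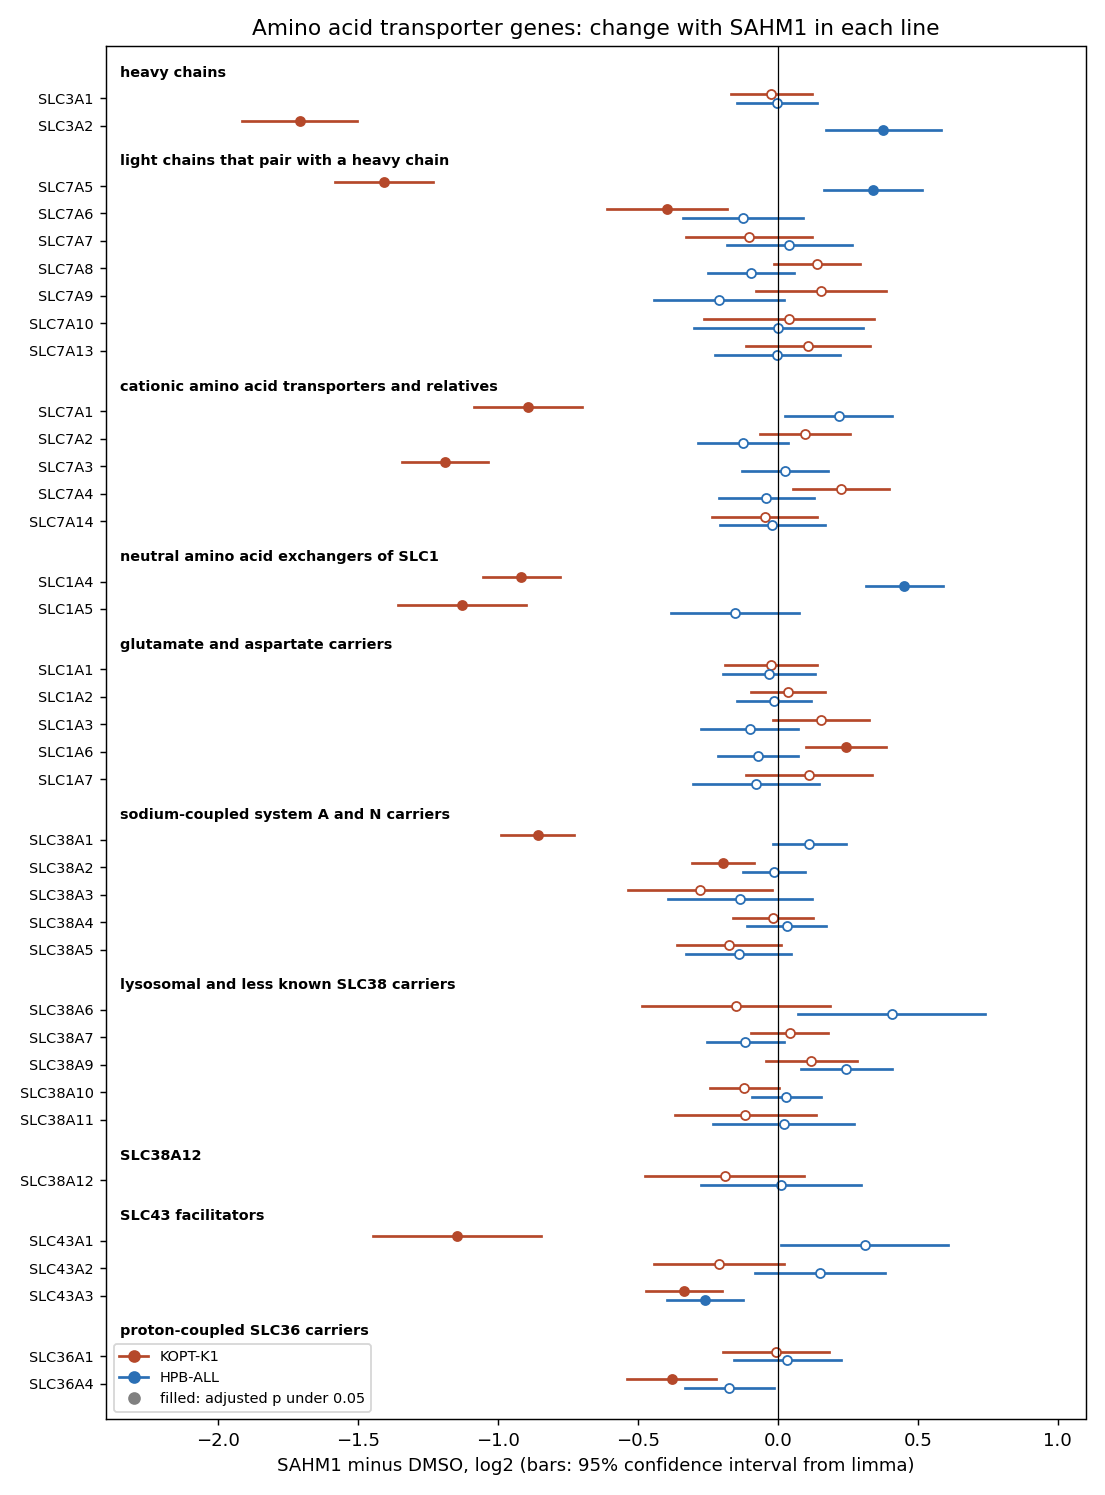
Log2 difference between SAHM1 and DMSO arrays for each of the 37 transporter genes, grouped by role, in KOPT-K1 (red) and HPB-ALL (blue). Bars are 95% confidence intervals and filled points have an adjusted p under 0.05. The KOPT-K1 values run from -1.71 for SLC3A2 to 0.24 for SLC1A6, while the HPB-ALL values run from -0.26 to 0.45.

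The heavy chain SLC3A2 had the largest fall of the members in KOPT-K1. Its SAHM1 arrays read -1.50, -1.68 and -1.95, and its DMSO arrays lay between -0.014 and 0.010. The arrays were far apart, and the difference of -1.71 ± 0.09 was a 3.27-fold fall (limma, adjusted p = 2.92e-07). SLC3A2 lies on chr11:62856109-62888860 of GRCh38.p14. In HPB-ALL the same probe set read 0.39, 0.31 and 0.43 with SAHM1 and -0.060, 0.077 and -0.020 with DMSO. All SAHM1 arrays were above all DMSO arrays there, by 0.38 ± 0.09 or 1.30-fold (adjusted p = 0.0256). This call was lost when any 1 of the 6 HPB-ALL arrays was left out. The other heavy chain, SLC3A1, which pairs with SLC7A9 in the kidney, stood at -0.02 ± 0.07 in KOPT-K1 and passed no test.

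Of the 7 light chains, SLC7A5 and SLC7A6 fell in KOPT-K1. SLC7A5 read -1.36, -1.36 and -1.50 on the SAHM1 arrays, with DMSO arrays between -0.093 and 0.079. The 3 SAHM1 arrays were close to each other and far below DMSO, at -1.41 ± 0.08 or 2.65-fold lower (limma, adjusted p = 4.29e-07). In HPB-ALL it read 0.42, 0.25 and 0.34 with SAHM1 and -0.15, 0.038 and 0.10 with DMSO. It was higher there by 0.34 ± 0.08 (adjusted p = 0.0206). That call was lost without DMSO 1, DMSO 2, SAHM1 1 or SAHM1 3 of HPB-ALL. SLC7A5 and SLC3A2 each rest on 1 probe set whose suffix marks probes shared between transcripts. SLC7A5 has pseudogene copies, so its reads are uncertain to that extent.

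SLC7A6 exchanges cationic for neutral amino acids. It read -0.17, -0.43 and -0.61 on the SAHM1 arrays of KOPT-K1 and fell by 0.40 ± 0.10 (limma, adjusted p = 0.0147). The lowest DMSO array stood at -0.13, close to the highest SAHM1 array. The call was lost in 5 of 19 alternatives, among them without DMSO 1 or DMSO 2 and with the KOPT-K1 arrays fitted alone. The other 5 light chains were not called as genes in either line. SLC7A8, a relative of SLC7A5 with overlapping substrates, stood at 0.14 ± 0.07 in KOPT-K1 and -0.10 ± 0.07 in HPB-ALL. In KOPT-K1, 1 of its 5 probe sets was called higher (0.45, adjusted p = 0.0379 in limma). SLC7A7 stood at -0.10 ± 0.10 in KOPT-K1 and was called lower without SAHM1 1 of that line, and SLC7A9, SLC7A10 and SLC7A13 at 0.15, 0.04 and 0.11.

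Among the cationic amino acid transporters, SLC7A1 and SLC7A3 fell in KOPT-K1. SLC7A1 and SLC7A3 take up arginine and lysine without a heavy chain. SLC7A3 read -1.14, -1.22 and -1.21 with SAHM1, the narrowest set among the 5 largest falls, against DMSO arrays between -0.060 and 0.034. It fell 2.28-fold, by 1.19 ± 0.07 on the log2 scale (limma, adjusted p = 5.59e-07). In HPB-ALL it stood at 0.02 ± 0.07, with a 95% interval from -0.13 to 0.18. SLC7A1 read -0.95, -0.94 and -0.80 in KOPT-K1 and fell by 0.89 ± 0.09 or 1.86-fold (adjusted p = 5.21e-05). In HPB-ALL it read 0.31, 0.057 and 0.26 with SAHM1 against 0.15, -0.087 and -0.096 with DMSO. The groups overlapped, and the difference of 0.22 ± 0.09 was not called. SLC7A2, SLC7A4 and SLC7A14 were not called as genes. SLC7A4 stood at 0.23 ± 0.08 in KOPT-K1 with an adjusted p of 0.0625, and was called higher there without HPB-ALL DMSO 1 or with median centring. Of its 2 probe sets, 1 was called higher in KOPT-K1 (0.34, adjusted p = 0.0403) and differed between lines (-0.50, adjusted p = 0.0415).

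Both neutral exchangers of the SLC1 family fell in KOPT-K1. SLC1A5, the glutamine carrier ASCT2, read -0.94, -1.19 and -1.25 with SAHM1, with DMSO arrays between -0.039 and 0.071. It fell 2.19-fold, by 1.13 ± 0.11 (limma, adjusted p = 3.05e-05). In HPB-ALL its SAHM1 arrays at -0.14, -0.30 and -0.043 overlapped DMSO arrays at -0.15, 0.20 and -0.072, and the difference of -0.15 ± 0.11 was not called. SLC1A4, which carries alanine, serine and cysteine, read -0.79, -1.01 and -0.95 in KOPT-K1 and fell by 0.92 ± 0.06 or 1.89-fold (adjusted p = 2.17e-06). In HPB-ALL it had the clearest rise of the members, with SAHM1 arrays at 0.44, 0.44 and 0.47 and DMSO arrays between -0.030 and 0.041. The difference was 0.45 ± 0.06 or 1.37-fold (adjusted p = 0.0010), and it was called with each array left out in turn.

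The 5 glutamate and aspartate carriers, known best from brain and other tissues, held no called fall. SLC1A6 rose in KOPT-K1, where it read 0.29, 0.23 and 0.21 with SAHM1 and 0.063, -0.024 and -0.043 with DMSO. The groups did not overlap, and the difference was 0.24 ± 0.07 (limma, adjusted p = 0.0224). The call was lost in 6 of 20 alternatives, among them without DMSO 2, DMSO 3 or SAHM1 1 of that line. It was also lost with quantile normalization, with both 18S and spike covariates, and without _x_at and _s_at probe sets. Of the 3 probe sets of SLC1A6, 2 were called higher and the other stood at 0.03. SLC1A1, SLC1A2, SLC1A3 and SLC1A7 stood between -0.02 and 0.15 in KOPT-K1 with no call.

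**Figure D2:**
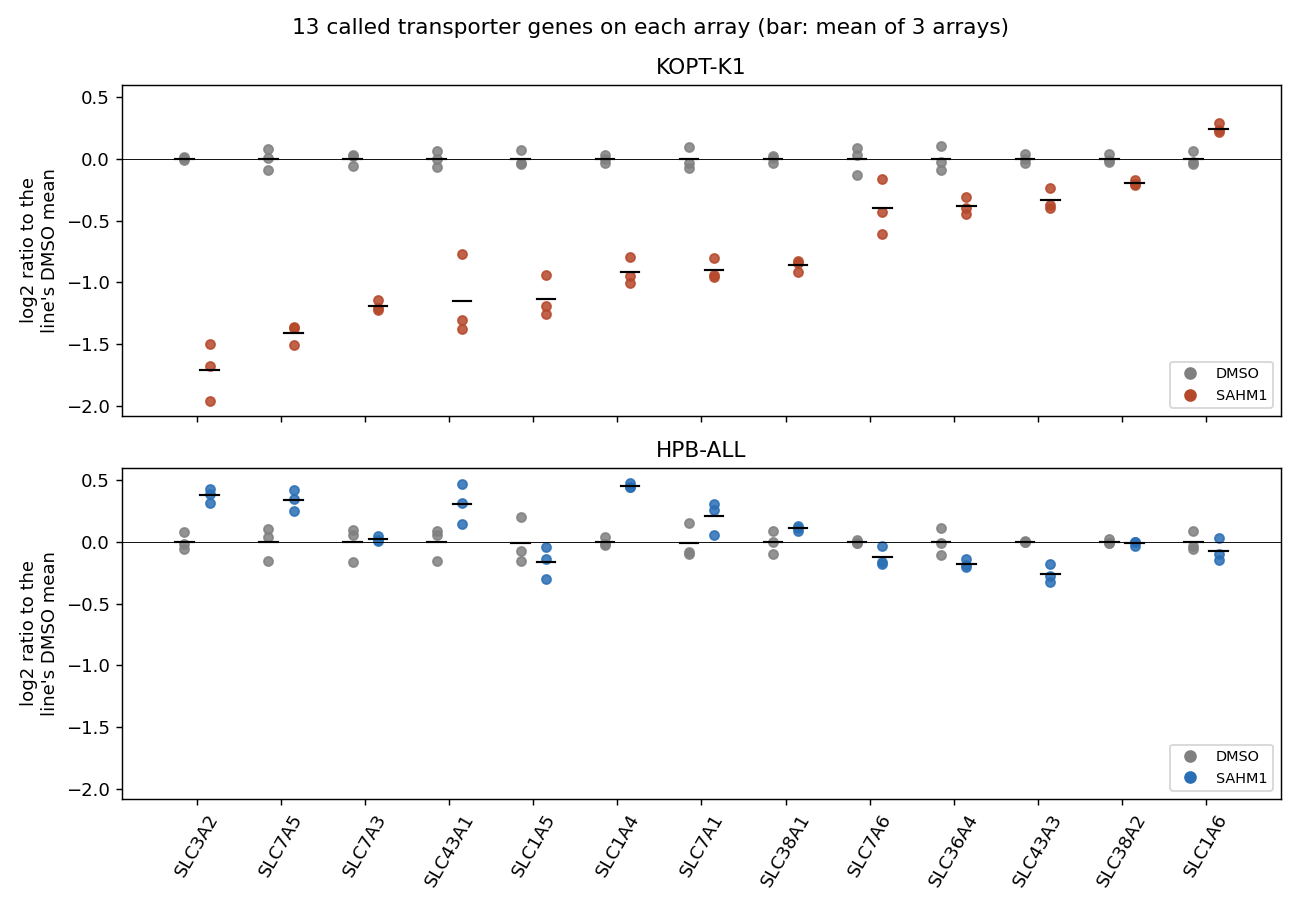
Log2 ratio of each of the 13 called transporters on every array, KOPT-K1 above and HPB-ALL below. Grey points are DMSO arrays, coloured points SAHM1 arrays, and bars the means of 3 arrays. In KOPT-K1 the SAHM1 arrays lie below the DMSO arrays for 12 of the 13 genes, and SLC43A1 has 1 SAHM1 array at -0.77 and the others at -1.30 and -1.37.

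The sodium-coupled carriers of systems A and N held 2 falls among 5 members. SLC38A1, which imports glutamine and alanine, read -0.91, -0.82 and -0.84 in KOPT-K1 with DMSO arrays between -0.034 and 0.024. It fell by 0.86 ± 0.06 or 1.81-fold (limma, adjusted p = 2.35e-06). SLC38A2, the close relative with similar substrates, fell too, with SAHM1 arrays at -0.17, -0.21 and -0.20 and a difference of -0.20 ± 0.05 (adjusted p = 0.0193). The difference between these relatives was not tested. The SLC38A2 call was lost in 6 of 19 alternatives, among them without DMSO 3 or SAHM1 2 of KOPT-K1 and with the KOPT-K1 arrays fitted alone. In HPB-ALL neither was called, with 0.11 ± 0.06 for SLC38A1 and -0.01 ± 0.05 for SLC38A2. SLC38A3, SLC38A4 and SLC38A5 stood at -0.28, -0.02 and -0.17 in KOPT-K1 without a call, though SLC38A3 was called lower without SAHM1 2 of that line.

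None of the lysosomal and less known SLC38 carriers was called as a gene in either line. SLC38A9, a lysosomal protein that passes arginine signals to mTORC1, stood at 0.12 ± 0.07 in KOPT-K1 and 0.25 ± 0.07 in HPB-ALL (limma, adjusted p = 0.289 and 0.0596). Its HPB-ALL value was called without the DMSO 1 array of that line. SLC38A6 had the second highest value in HPB-ALL, 0.41 ± 0.15, but with the widest error of the members (adjusted p = 0.133). SLC38A7, SLC38A10 and SLC38A11 stood at 0.04, -0.12 and -0.12 in KOPT-K1. SLC38A12, for which no role was listed, stood at -0.19 ± 0.13.

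The SLC43 facilitators moved unevenly. SLC43A1, which lets branched-chain amino acids through without exchange, read -1.30, -1.37 and -0.77 with SAHM1 in KOPT-K1 and fell 2.21-fold, by 1.15 ± 0.14 (limma, adjusted p = 2.06e-04). Its SAHM1 3 array stood apart from the other SAHM1 arrays but still far below the DMSO arrays, which lay between -0.063 and 0.066. In HPB-ALL its SAHM1 arrays at 0.31, 0.14 and 0.46 were all above the DMSO arrays, and 0.31 ± 0.14 was not called (adjusted p = 0.207). SLC43A3, known as a purine nucleobase carrier and not as an amino acid carrier, was the member that fell in both lines. It fell by 0.34 ± 0.06 in KOPT-K1 (adjusted p = 0.0031) and by 0.26 ± 0.06 in HPB-ALL (adjusted p = 0.0210). The KOPT-K1 call was lost with quantile normalization and with both 18S and spike covariates. The HPB-ALL call was lost without DMSO 2, DMSO 3, SAHM1 1 or SAHM1 2 of that line. SLC43A2 stood at -0.21 ± 0.11 and 0.15 ± 0.11 in the lines without a call.

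Of the SLC36 carriers, SLC36A4 is a high-affinity proline and tryptophan carrier. It read -0.31, -0.40 and -0.45 with SAHM1 in KOPT-K1 and fell by 0.38 ± 0.07 (limma, adjusted p = 0.0037). This call was lost with quantile normalization and with both 18S and spike covariates. In HPB-ALL it stood at -0.17 ± 0.07 without a call. SLC36A1, which exports amino acids from lysosomes, stood at -0.01 ± 0.09 and 0.03 ± 0.09. In all, 24 members were called neither in a line nor in the difference between lines. Their values ran from -0.28 to 0.23 in KOPT-K1, and their 95% intervals reached no further than -0.53 and 0.40. In HPB-ALL their values ran from -0.21 to 0.41 and the intervals from -0.44 to 0.74.

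The response differed between the lines for 9 members, tested as the HPB-ALL difference minus the KOPT-K1 difference in the same limma fit. It was higher in HPB-ALL for 8 members (21.6%, with 11.4% of all genes called so) and lower for 1 (2.7%, with 5.41% of all genes). The members' median was 0.12 and that of all genes -0.03. The members' median was 0.050 without KOPT-K1 SAHM1 2, 0.064 without HPB-ALL SAHM1 3 and 0.078 without HPB-ALL DMSO 1. SLC3A2 differed most, by 2.09 ± 0.13 (adjusted p = 1.44e-06), followed by SLC7A5 at 1.75 ± 0.11 (adjusted p = 1.58e-06). SLC43A1 differed by 1.46, SLC1A4 by 1.37, SLC7A3 by 1.21 and SLC7A1 by 1.11. SLC1A5 differed by 0.98 and SLC38A1 by 0.97, while SLC1A6 differed by -0.31. The SLC1A6 difference was lost in 13 of 19 alternatives, among them leaving out KOPT-K1 DMSO 2, DMSO 3, SAHM1 1 or SAHM1 2 or HPB-ALL DMSO 1, DMSO 2, SAHM1 1 or SAHM1 3. The differences of SLC1A5 and SLC7A1 were not called with quantile normalization or with both 18S and spike covariates, and that of SLC43A1 not with both covariates. The 8 members with a higher response in HPB-ALL had all fallen in KOPT-K1. That fall is itself a term of the subtraction, so the overlap is partly set by it. Of the 12 falls in KOPT-K1, 7 had a value above 0 in HPB-ALL, 3 were called higher there (SLC1A4, SLC3A2 and SLC7A5) and 1 was called lower (SLC43A3). Across the 37 genes the values of the lines had a Pearson correlation of -0.53 and a Spearman correlation of -0.34, against -0.14 and -0.12 over all genes. Over the 25 members that did not fall in KOPT-K1 the Pearson value was -0.29. These are descriptions across genes, which are not independent and share the arrays of each line.

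**Figure D3:**
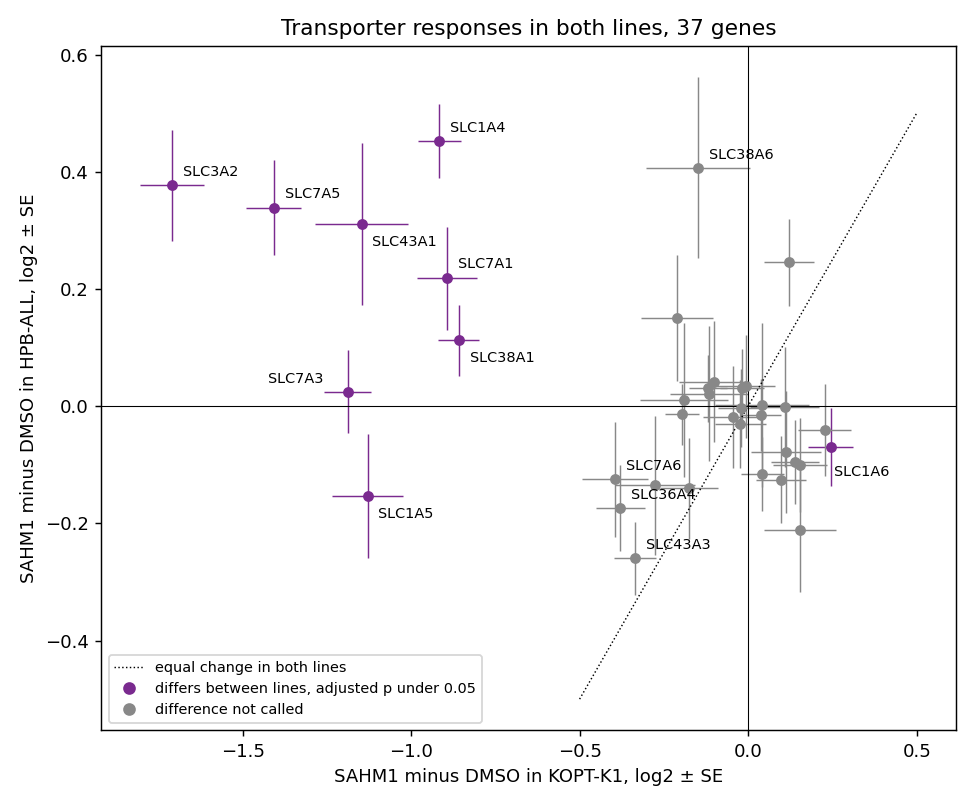
Log2 difference with SAHM1 in KOPT-K1 (x) against HPB-ALL (y), ± SE, for 37 transporters. Purple points differ between the lines at an adjusted p under 0.05, and the dotted line marks equal change. SLC3A2, SLC7A5, SLC43A1, SLC1A4, SLC7A1 and SLC38A1 lie at the upper left, while SLC43A3 lies near the dotted line.

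The single probe sets of a gene were compared where it had several, which held for 23 of the 37 members. In KOPT-K1, 30 of the 88 probe sets were called, 25 lower and 5 higher, with 14.6% of all probe sets called. In HPB-ALL 6 of the 88 were called, 5 higher and 1 lower, with 5.15% of all probe sets called. Of the 5 higher, 4 belonged to SLC1A4 and 1 to SLC7A5. The probe set of SLC3A2 was not among these 5: in the limma fit over all probe sets its rise in HPB-ALL had an adjusted p of 0.0534, and that of SLC7A5 had 0.0494. SLC1A4 fell on all 5 of its probe sets, from -1.42 to -0.68, and rose on 4 of 5 in HPB-ALL, the highest by 1.03. SLC7A1 fell on 4 of 5 probe sets, from -1.77 to -0.77, and the remaining one stood at -0.10. SLC38A1 fell on 3 of 4, from -1.47 to -0.90, with the remaining one at -0.04. The smaller falls were called on fewer of their probe sets: 2 of 3 for SLC7A6, 1 of 2 for SLC36A4 and 1 of 3 for SLC38A2, while SLC43A3 fell on both of its 2.

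Averages hid opposite probe sets in a few members. SLC38A9 had 1 probe set lower by 0.46 and 1 higher by 0.70 in KOPT-K1, both called, so its gene value of 0.12 describes neither. SLC38A10 had 7 probe sets from -0.69 to 0.22, of which the lowest alone was called. The 2 probe sets of SLC36A1 stood at 0.29 and -0.30 with no call. SLC3A2, SLC7A5, SLC7A3, SLC43A1 and SLC1A5, the 5 members that fell by at least 1 log2 unit, each had 1 probe set and no such check.

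**Figure D4:**
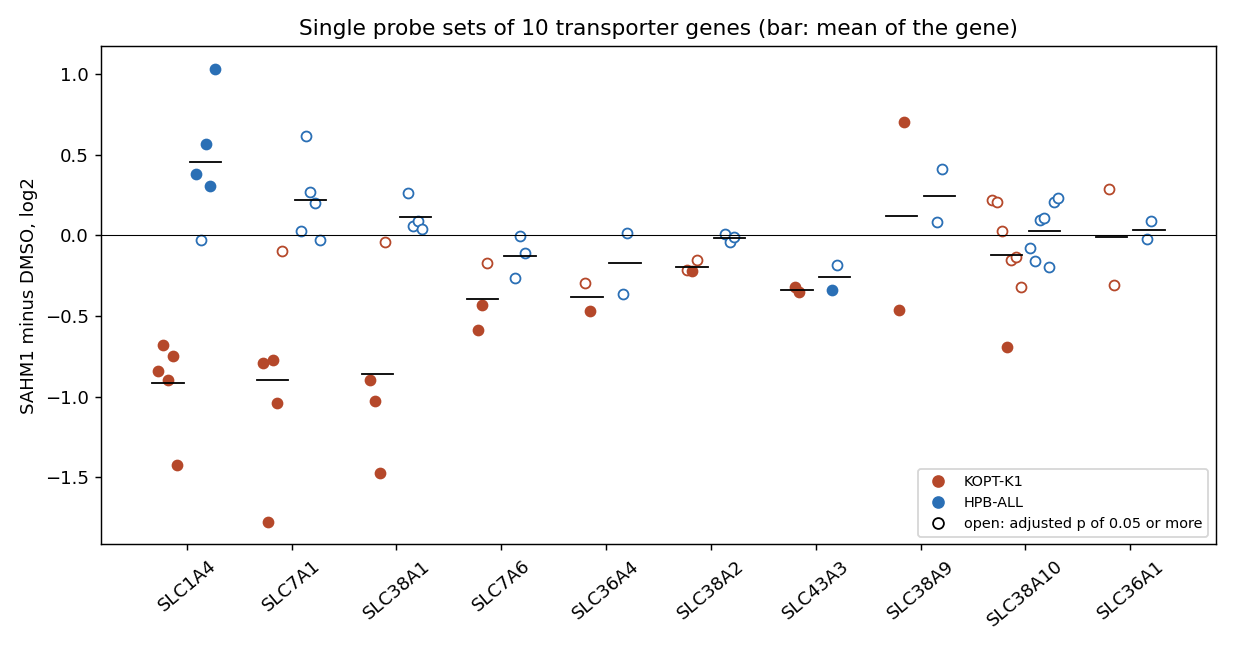
Log2 difference of each probe set of 10 transporters in KOPT-K1 (red) and HPB-ALL (blue). Filled points have an adjusted p under 0.05 over all probe sets, and bars are the gene means. The 5 SLC1A4 probe sets lie between -1.42 and -0.68 in KOPT-K1, while the 2 of SLC38A9 lie at -0.46 and 0.70.

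The sequences around transcription starts were set beside these changes because 10 of the 12 transporters that fell in KOPT-K1 had a window in the RefSeq promoter table (GRCh38.p14, 250 bases before to 50 after each start). Windows of 29 of the 37 members were searched. The other 8 were not in the search, and the counts of members below do not cover them. Among the 8 were SLC7A3 and SLC43A3, which fell in KOPT-K1, and SLC7A2 and SLC7A13, which were not called. The C/EBP-ATF element TTNCATCA, a site type known from amino acid response genes, was looked for on both strands and was found in 3.62% of 35116 windows and for 4.46% of 27305 genes. It was found for 5 of the 10 falling members and for 1 of the 19 other members searched, SLC1A3. The falling members held 18 of the members' 51 windows, since several genes have more than 1 start. The stretches of the 5 falling members are given 5′ to 3′ on the gene's strand, with the element in capitals in either orientation.
SLC1A4: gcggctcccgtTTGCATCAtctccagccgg
SLC3A2: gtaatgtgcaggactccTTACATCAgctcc
SLC38A1: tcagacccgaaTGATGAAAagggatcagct
SLC7A1: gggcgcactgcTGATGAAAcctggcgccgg
SLC1A5: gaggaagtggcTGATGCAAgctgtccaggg
These lie at chr2:64989381-64989410 (plus strand), chr11:62881719-62881748 (plus), chr12:46266502-46266531 (minus), chr13:29595663-29595692 (minus) and chr19:46784893-46784922 (minus). The element began 7 bases before an annotated start for SLC1A4, 4 before for SLC38A1 and 97 before for SLC1A5. It began at base 38 after a start for SLC3A2 and base 8 for SLC7A1. Of these starts, that of SLC7A1 alone is the outermost of its gene, and the others lie within the listed gene. SLC3A2, SLC7A1, SLC1A4, SLC38A1 and SLC1A5 had log2 differences from -1.71 to -0.86 in KOPT-K1, as given above. A match describes letters and is not shown to be a bound site.

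The E-box CACGTG, the core that MYC and related factors bind, overlapped none of these elements. It was found in 7.26% of windows and for 8.77% of genes, and for 3 of the 10 falling members and 6 of the 19 others. The 3 are shown because they include SLC7A5, the second largest fall, which had no C/EBP-ATF match in its windows.
SLC7A5: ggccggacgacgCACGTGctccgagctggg
SLC43A1: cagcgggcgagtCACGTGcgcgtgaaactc
SLC1A5: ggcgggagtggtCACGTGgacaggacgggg
They lie on the minus strand at chr16:87869620-87869649, chr11:57515797-57515826 and chr19:46787326-46787355, with the E-box 130, 112 and 50 bases before a start. SLC1A5 had both motifs, at different starts. The 250 bases before the start of SLC7A5 (chr16:87869508-87869757, minus strand) are given with the E-box in capitals.
SLC7A5: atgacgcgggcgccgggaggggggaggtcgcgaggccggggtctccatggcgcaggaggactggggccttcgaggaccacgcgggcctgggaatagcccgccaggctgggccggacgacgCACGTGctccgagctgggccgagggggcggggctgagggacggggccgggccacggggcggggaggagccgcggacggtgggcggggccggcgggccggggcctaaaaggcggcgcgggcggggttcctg
The RBPJ element GTGGGAA, the letters read by the DNA-binding partner of NOTCH, was found in 6.25% of windows and for 7.62% of genes, and for 0 of the 10 falling members and 1 of the 19 others, SLC43A2. No match says only that these letters are not in these windows.

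Genes around the transporters were taken from 3 further lists. Of 24 other amino acid and peptide carriers, 1 fell (4.17%) and 2 rose (8.33%) in KOPT-K1, with a median of 0.10. Over all genes 13.2% were called lower and 5.85% higher in that line, and 4.38% and 4.96% in HPB-ALL, where 1 of the 24 rose. SLC16A10, a carrier of aromatic amino acids, fell by 0.44 ± 0.07 in KOPT-K1 and rose by 0.35 ± 0.07 in HPB-ALL. The peptide carrier SLC15A1 rose by 0.59 ± 0.09 in KOPT-K1, and the vesicular glutamate carrier SLC17A8 by 0.24 ± 0.07. Of 12 mitochondrial amino acid carriers, 5 fell and 0 rose in KOPT-K1 (41.7% lower), with a median of -0.11, and 3 fell in HPB-ALL (25% lower), against 13.2% and 4.38% of all genes. SFXN2, a sideroflexin of the inner membrane, fell in both, by 0.41 ± 0.07 and 0.27 ± 0.07. The aspartate-glutamate carriers SLC25A12 and SLC25A13 fell by 0.36 and 0.34 in KOPT-K1 and the ornithine carrier SLC25A15 by 0.35. In HPB-ALL the glutamate carrier SLC25A22 fell by 0.46 ± 0.11 and the basic amino acid carrier SLC25A29 by 0.28 ± 0.06.

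Amino acid sensing at the lysosome was listed with 32 genes, of which 29 were measured. In KOPT-K1 8 fell (27.6%, with 13.2% of all genes) and 4 rose (13.8%, with 5.85%). In HPB-ALL 4 fell (13.8%, with 4.38%) and 2 rose (6.9%, near the 4.96% of all genes). NPRL3, a subunit of the mTORC1 inhibitor GATOR1, fell by 0.54 ± 0.06 in KOPT-K1, and the arginine sensor CASTOR1 fell by 0.54 ± 0.10. MIOS, a GATOR2 subunit, fell by 0.38 ± 0.06. LAMTOR4 of the Ragulator scaffold rose by 0.49 ± 0.06 there. In HPB-ALL RPTOR, the mTORC1 scaffold, fell by 0.61 ± 0.14, CASTOR2 by 0.37 ± 0.09 and LAMTOR2 of Ragulator by 0.29 ± 0.07. LAMTOR2 rose in KOPT-K1, by 0.35 ± 0.07. FNIP1, the folliculin partner, rose by 0.36 ± 0.09 in HPB-ALL. All of these passed limma's test over all genes.

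Technical readings moved with treatment. In HPB-ALL the mean 18S ribosomal RNA reading was 2.19 higher with SAHM1, with SAHM1 arrays between 1.35 and 1.89 and DMSO arrays between -1.65 and 1.05. When that reading entered the fit as a covariate, all 4 HPB-ALL calls were lost, while the values were 0.52 for SLC1A4, 0.46 for SLC3A2, 0.56 for SLC7A5 and -0.22 for SLC43A3. The DMSO 1 array had an 18S level of 1.05, near that of the SAHM1 arrays. It read -0.030 for SLC1A4, -0.060 for SLC3A2, -0.15 for SLC7A5 and -0.0067 for SLC43A3. This is 1 array, which cannot separate the 18S level from treatment. In KOPT-K1 the hybridization spikes were higher by 0.83 with SAHM1, from 0.60 to 1.05 against -0.018 to 0.0086. With 18S and spike levels as covariates, 8 of the 12 KOPT-K1 falls were called, with SLC3A2 at -1.68 and SLC7A5 at -1.42. Quantile normalization, which gives all arrays the same spread of ratios, kept 7 of the 12 and brought SLC3A2 to -0.92, SLC7A5 to -0.77, SLC7A3 to -0.67, SLC43A1 and SLC1A5 to -0.65, SLC1A4 to -0.54 and SLC38A1 to -0.51. SLC7A1 then stood at -0.52 and was not called (adjusted p = 0.0723). The 5′ minus 3′ reading of ACTB, a sign of RNA quality, was lower with SAHM1 by 0.17 in KOPT-K1 (SAHM1 -0.22 to -0.091, DMSO -0.0091 to 0.010) and by 0.24 in HPB-ALL (SAHM1 -0.41 to -0.086, DMSO -0.030 to 0.049), with no overlap in either line. That of GAPDH differed by 0.0089 and -0.012, with overlap in both. Of 11 measured B-cell, myeloid and erythroid markers, MS4A1 alone was called, at 0.32 ± 0.07 in KOPT-K1, and none in HPB-ALL. The part of these readings in the transporter changes beyond such fits was not tested.

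**Figure D5:**
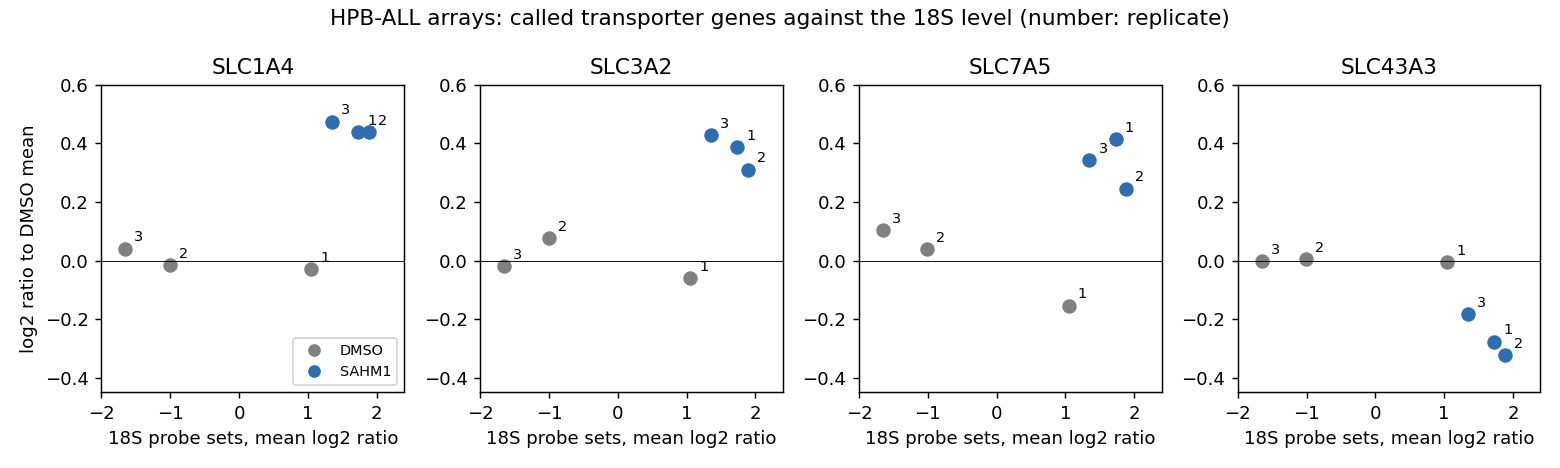
The 4 transporters called in HPB-ALL on each array of that line (y, log2 ratio to the DMSO mean) against the mean log2 ratio of the 18S probe sets (x), with the replicate number beside each point. Grey points are DMSO and blue points SAHM1. The DMSO 1 array lies at an 18S level of 1.05 and at -0.030 for SLC1A4, where the SAHM1 arrays read 0.44 to 0.47. This 1 array cannot separate the 18S level from treatment.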

How the data were processed

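Total RNA of 12 cultures was hybridised to Affymetrix U133 Plus 2.0 arrays. The submitters' processing notes name RMA, and no version is given in the sources used here. What the authors deposited is a linear ratio per probe set: the mean of each line's 3 DMSO arrays was 1 within 1e-06 for all 54675 probe sets. Levels are therefore lost, and no filter on low values was possible. Precision is limited by the number of arrays.

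The ratios were turned into log2 values and averaged over probe sets with the same single symbol of the platform annotation (41097 probe sets, 19775 genes). Two-sided limma models (version 3.58.1, R 4.3.3, moderated by eBayes) were fitted to all 12 arrays with 4 groups, and p-values were adjusted by Benjamini-Hochberg over all genes. A fit over 54613 non-control probe sets served the single probe sets. The steps were tested on simulated data. Replicates are cultures of one experiment, so p-values measure the spread between them.

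Named genes were all members called in any comparison, a set of 7 members whatever their values (SLC3A2, SLC7A5, SLC1A5, SLC38A1, SLC38A2, SLC38A9, SLC36A1), other members where a role is described, and up to 4 called genes per further list and line with the smallest p. The members, roles and lists were chosen with earlier results of these data known, so no test over the members was made. Sequences and coordinates come from RefSeq (GRCh38.p14). Alternatives were a replicate block, median centring, quantile normalization, 18S and spike covariates, probe sets without the suffixes _x_at and _s_at, the median of probe sets, 1 line at a time, and each array left out. Replicate numbers did not pair the arrays: the same-number correlations of deviations lay between -0.0548 and 0.0676 over both lines.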

Additional observations from a re-analysis of the deposited data

Results flagged for a closer look

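The results here are those whose response to SAHM1 differed between the lines in the limma contrast of HPB-ALL minus KOPT-K1 at an adjusted p under 0.05. Among the transporters these were SLC3A2 (2.09), SLC7A5 (1.75), SLC43A1 (1.46), SLC1A4 (1.37), SLC7A3 (1.21), SLC7A1 (1.11), SLC1A5 (0.98), SLC38A1 (0.97) and SLC1A6 (-0.31), in log2 units. Among the 24 other carriers, 1 was called higher (4.17%) and 3 lower (12.5%), with 11.4% and 5.41% of all genes. The named ones were SLC16A10 (0.78), SLC15A1 (-0.67) and SLC17A8 (-0.44). Among the 12 mitochondrial carriers, SLC25A13 (0.39) alone was called higher (8.33%, with 11.4% of all genes) and 0 were lower. Of the 29 measured genes of amino acid sensing, 6 were called higher (20.7%) and 7 lower (24.1%), with 11.4% and 5.41% of all genes. Among the named genes of amino acid sensing, NPRL3 (0.42), MIOS (0.37) and FNIP1 (0.59) were higher in HPB-ALL than in KOPT-K1, while LAMTOR4 (-0.54), LAMTOR2 (-0.64), CASTOR2 (-0.63) and RPTOR (-0.80) were lower. With SAHM1 the 18S reading changed by 2.19 in HPB-ALL and -0.26 in KOPT-K1, and the spike reading by -0.39 and 0.83. The part of these readings in the differences between lines was not tested for the genes of the further lists.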

How the results depend on the processing

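Of 759 values of named transporters under the alternatives, 691 kept their side of the threshold, 66 lost a call and 2 gained one. The sign turned in 15 of the 691, all values that were not called, in HPB-ALL for SLC1A5, SLC7A3, SLC38A1, SLC38A2 and SLC36A1 and in KOPT-K1 for SLC36A1, and 0 called values changed sign. The falls of SLC1A4, SLC1A5, SLC7A3, SLC38A1 and SLC43A1 in KOPT-K1 were called under all 20 alternatives run, and those of SLC3A2 and SLC7A5 under all 19 that measured them. In KOPT-K1 the count of members higher, 1, was 2 with median centring, 0 with quantile normalization, 0 with 18S and spike covariates, 0 without _x_at and _s_at probe sets, and 0 to 2 with an array left out. The count lower, 12, was 7 with quantile normalization and 7 without those probe sets, which left 28 members measured. SLC3A2, SLC7A5, SLC7A6, SLC38A2 and SLC43A3 were not among the 28, and each fall that was measured kept its call. The members' median was -0.058 with quantile normalization and -0.13 to -0.053 with an array left out. All genes called, 3761, became 95, 597 and 2497 with quantile normalization, both covariates and without those probe sets. In HPB-ALL the count higher, 3, was 1 with quantile normalization, 0 with the 18S covariate, 0 with both covariates, 1 without those probe sets and 1 to 3 with an array left out, with 1 without DMSO 2, SAHM1 1 or SAHM1 3. The count lower, 1, was 0 with the replicate block, quantile normalization, the 18S covariate, both covariates and without those probe sets, and 0 to 1 with an array left out. Without those probe sets, the called members SLC3A2, SLC7A5 and SLC43A3 were not measured, and SLC1A4 kept its call. The median was 0.035 with both covariates. All genes called, 1846, became 258, 52, 39 and 1019 with quantile normalization, the 18S covariate, both covariates and without those probe sets. With an array left out they ran from 913 (without SAHM1 2) to 2012, and were under 1846 by over 1.5 times also without DMSO 2 (915), DMSO 3 (996), SAHM1 1 (1124) and SAHM1 3 (1117). For the difference between lines, the count higher, 8, was 5 with both covariates. The count lower, 1, was 0 with the replicate block, quantile normalization, the 18S covariate, both covariates and without those probe sets, and 0 to 2 with an array left out. The median was 0.079 with quantile normalization, 0.050 without those probe sets and 0.050 to 0.15 with an array left out. All genes called, 3323, became 127, 324 and 68 with quantile normalization, the 18S covariate and both covariates. Apart from the fewer probe sets or arrays that an alternative uses by construction, the cause of these moves was not tested.

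With the replicate block, 11 members were lower and 1 higher in KOPT-K1, 3 were higher and 0 lower in HPB-ALL, and 8 and 0 differed between lines. SLC38A2, SLC43A3 in HPB-ALL and SLC1A6 in the difference between lines lost their calls. The samples share only a number, and 3 arrays per group set the precision.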
